A study of Homo sapiens with 9 samples.

Results

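The ATP-binding cassette (ABC) family was followed through HaCaT keratinocytes expressing FTO or a mutant of it. ABC proteins bind and split ATP, and most use that energy to move lipids, conjugates, peptides or metals across membranes. Their subfamilies run from A to G: ABCA and ABCG proteins mostly carry sterols and other lipids, ABCB proteins peptides, heme and metal compounds, ABCC proteins organic anions and conjugates, and ABCD proteins fatty acids and cobalamin. ABCE and ABCF proteins have no membrane segment and are known mainly for acting on ribosomes. In the epidermis the family is best known for ABCA12, which loads ceramides into the lamellar granules that seal the skin.

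Members were taken by symbol, as every row of the count table named ABC followed by a letter from A to G and a number, which gave 45 genes of 21170. The rule uses no measured value, but the members were chosen with earlier results of these data known. It takes no ABC protein with a symbol of another form, such as TAP1, TAP2 and CFTR. HaCaT is an immortal human keratinocyte line that arose without a transforming virus. FTO strips methyl groups from adenosines of RNA. Of the 9 poly(A) RNA libraries, 3 came from cells overexpressing wild-type FTO (FTO), 3 from cells overexpressing a form with disrupted demethylase activity (mut-FTO) and 3 from cells with the empty vector (Vector). The labels give no promoter for the constructs, no particular mutation and no separate cultures or clones. The p-values therefore rest on a spread between libraries that may be technical, and what a construct does and what else sets its cells off cannot be told apart. In bulk RNA, fewer cells that make a transcript and less of it per cell cannot be told apart either. Columns were matched to groups by letter codes, and those of FTO and mut-FTO are told apart by the letters alone.

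Libraries held 32222203 to 37846027 counts. FTO itself reached 69.6, 77.1 and 62.6 CPM (counts scaled to the normalized library size) in FTO and 49.7, 82.7 and 64.3 CPM in mut-FTO, against 18.4, 17.0 and 25.8 CPM in Vector. All 10 keratinocyte markers, among them KRT5, KRT14 and TP63, were tested, and together they gave 18200 to 18900 CPM in FTO, 21700 to 27500 CPM in mut-FTO and 15400 to 19200 CPM in Vector. Vector replicate 3 stood apart from the other libraries of its group. Mitochondrially encoded genes took 14.97% of its counts against 3.81% to 7.45% in the other 8 libraries. Unnamed loci took 2.50% of its counts and 3.17% of those of mut-FTO replicate 2, against 0.689% to 0.875% elsewhere. Where leaving out Vector replicate 3 changed a call of a named ABC gene or moved its printed difference from Vector by over 1.5 times, the value without it is given.

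Of the 45 ABC genes, 30 had enough counts to be tested, 9 had counts below that level and 6 had none in any library. Tested were 8 of 12 ABCA genes, 5 of 9 ABCB, 8 of 11 ABCC, 3 of 4 ABCD, the only ABCE gene, all 3 ABCF and 2 of 5 ABCG. The genes without a count were ABCA6, ABCB5, ABCB11, ABCC8, ABCD2 and ABCG8. For such a gene a library allows up to 3 counts, which is 0.0797 to 0.102 CPM. ABCB1, which encodes the drug exporter P-glycoprotein, had 3 counts, all in Vector replicate 1. Further genes with counts too few to test were ABCA8 (2 counts over the 9 libraries), ABCA9 (7), ABCA10 (65), ABCB4 (4), ABCC11 (1), ABCC12 (4), ABCG4 (8) and ABCG5 (1). All 7 counts of ABCA9 lay in FTO replicate 3 and all 8 of ABCG4 in FTO replicate 1.

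Scaled by length, the family's RNA in these cells came mainly from ABCF and ABCC genes. Levels between genes are given as CPM per kilobase of the longest protein-coding transcript in GENCODE 29. On that scale ABCF3, ABCF1, ABCC1, ABCF2, ABCC3 and ABCB6 led, at 18.7 to 30.7 CPM per kilobase averaged over the 9 libraries. ABCF genes made up 37.9% ± 0.703 of the family's length-scaled sum in FTO, 32.7% ± 0.397 in mut-FTO and 37.2% ± 2.29 in Vector (SD, n = 3 each). ABCC genes made up 28.6% ± 0.790 in FTO, 34.0% ± 2.29 in mut-FTO and 29.8% ± 2.56 in Vector. ABCG genes were scarcest, at 0.333% in FTO, 0.516% in mut-FTO and 0.461% in Vector.

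**Figure D1:**
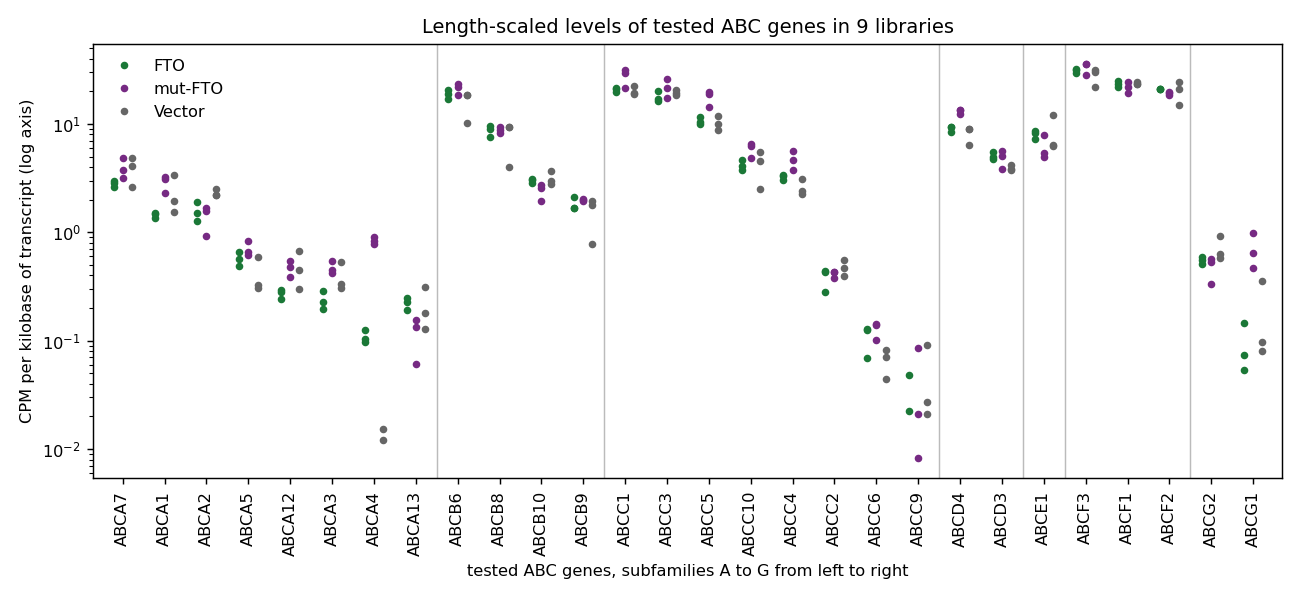
Length-scaled levels of 28 tested ABC genes, in CPM per kilobase on a log axis, with subfamilies from A on the left to G on the right and a point per library in green (FTO), purple (mut-FTO) and grey (Vector). Libraries without a count, ABCA4 in Vector replicate 2 and ABCC9 in FTO replicate 1, have no point, and ABCA4 is the gene whose groups lie farthest apart.

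Within the leading genes the order was not resolved everywhere. ABCF3 stood at 31.1 ± 1.40 CPM per kilobase in FTO, 33.3 ± 4.36 in mut-FTO and 27.8 ± 5.21 in Vector. ABCF1, which binds initiation factor complexes, stood at 23.3 ± 1.51 in FTO, 22.0 ± 2.72 in mut-FTO and 23.8 ± 0.731 in Vector, so that in Vector the difference between both genes was within the spread of ABCF3. ABCC1, an exporter of glutathione conjugates, reached 20.8 ± 1.07 CPM per kilobase in FTO, 27.5 ± 5.42 in mut-FTO and 20.1 ± 1.81 in Vector. It thus averaged less than ABCF1 in FTO and Vector and more in mut-FTO, where the difference was about the SD of ABCC1. ABCF2, also an ABCF protein of the cytoplasm, stood at 21.1 ± 0.0955 CPM per kilobase in FTO, 19.1 ± 0.768 in mut-FTO and 20.1 ± 4.69 in Vector, within 1 SD of ABCC1 in FTO and Vector.

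Few ABC genes passed the test against Vector, and all that did rose. Calls are those with an adjusted p below 0.05 over all 13713 genes tested, by edgeR's quasi-likelihood test with Benjamini-Hochberg adjustment. In FTO, 1 of 30 rose (ABCA4) and 29 did not pass, where 0.744% of all genes tested were called in either direction and 0.306% upward. In mut-FTO 4 of 30 rose (ABCA4, ABCC4, ABCC5 and ABCD4) and 26 did not pass, where 7.78% of all genes were called and 3.27% upward. No tested member fell by edgeR in either comparison, where 0.438% and 4.51% of all genes did. ABCA10 had too few counts to be tested. When genes of low count were kept, it was called lower in mut-FTO (log2 −5.36, edgeR adjusted p = 0.0476). An unadjusted p below 0.05 was met by 5 members in FTO, 1 higher and 4 lower, and by 9 in mut-FTO, 8 higher and 1 lower, where 11.9% and 21.1% of all genes met it. DESeq2 called none lower in FTO and 1, ABCA2, in mut-FTO, and limma-voom none in either. In either direction DESeq2 called 2.67% and 12.3% of all genes in FTO and mut-FTO, and limma-voom 0.685% and 7.69%. The median log2 fold change of the 30 was 0.016 in FTO and 0.26 in mut-FTO, against −0.0020 and −0.0012 over all genes tested. FTO libraries lay wholly above Vector for 3 members and wholly below for 4, where 10.1% and 10.9% of all genes, 21% in all, did so. For mut-FTO these were 10 and 3 members, where 12.2% and 11.8%, 24% in all, did so. Both comparisons use the same Vector libraries.

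FTO was also set directly against mut-FTO, whose levels of FTO RNA overlapped. The enzyme's activity and whatever else sets these cells apart cannot be told apart in this comparison. Here 3 of 30 were lower in FTO (ABCA4, ABCC5 and ABCG1) and 27 did not pass, where 2.33% of all genes were called and 1.13% in that direction. None was higher by edgeR, where 1.2% of all genes were, nor by DESeq2 or limma-voom. An unadjusted p below 0.05 was met by 10 members, 1 higher and 9 lower, where 14% of all genes met it. The members' median was −0.23, against 0.0046 over all genes, with 22 values below 0 and 8 above. Libraries of FTO lay wholly below those of mut-FTO for 10 of 30 members and wholly above for 3, where 14.2% and 14.8% of all genes tested, 29% in all, did so. Of these 30 genes, 12 had their lowest mean in Vector and their highest in mut-FTO, with FTO between. The next most frequent order, FTO lowest and mut-FTO highest, held 6. The share of each order over all genes was not taken.

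**Figure D2:**
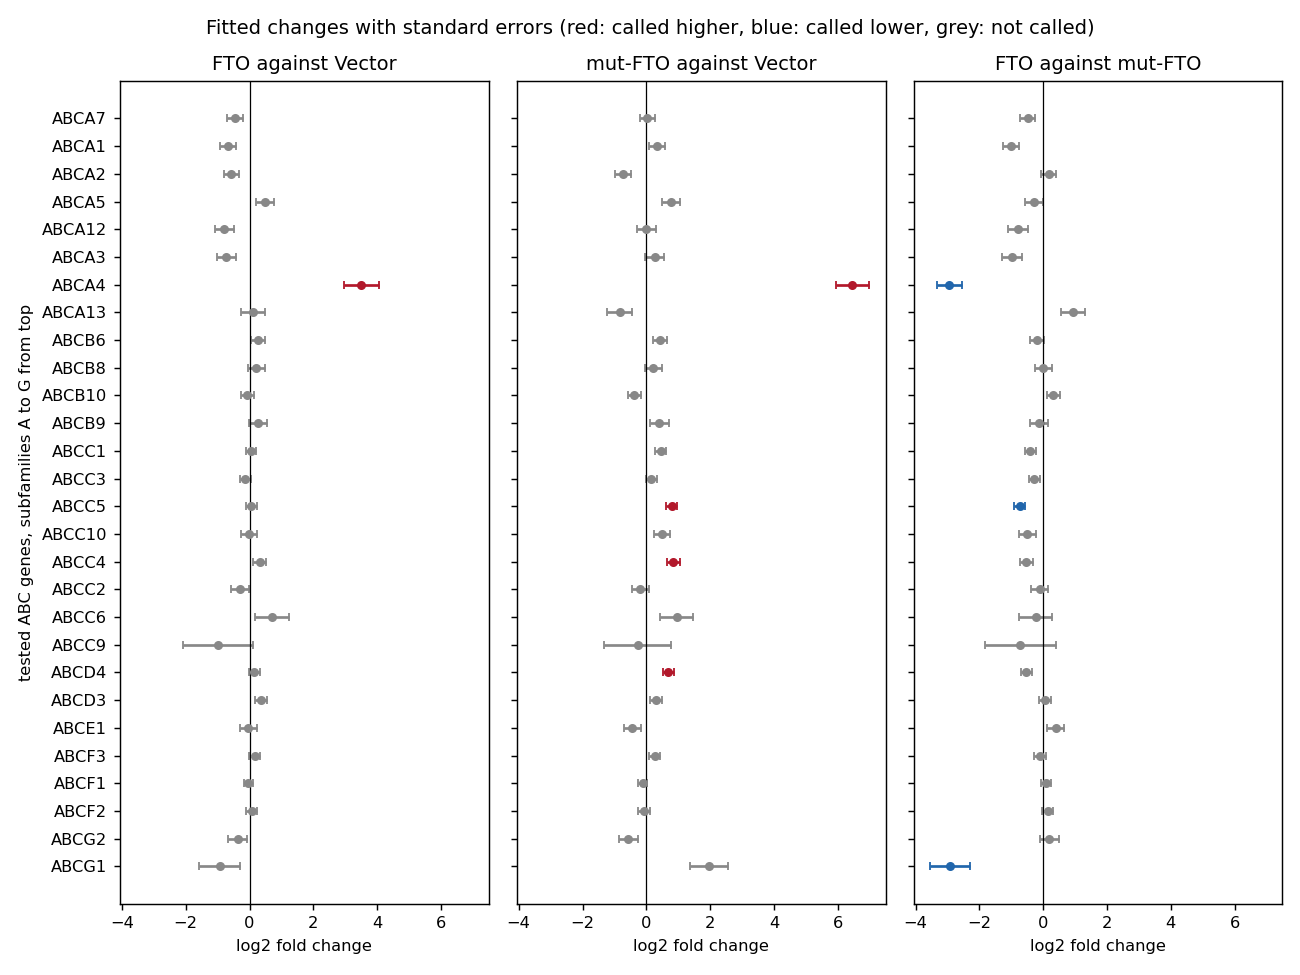
Fitted log2 fold changes of 28 tested ABC genes with their standard errors, with FTO over Vector on the left, mut-FTO over Vector in the middle and FTO over mut-FTO on the right. Calls above 0 are red, calls below 0 blue and the rest grey: 1 red point on the left, 4 in the middle and 3 blue points on the right.

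ABCA4, which flips retinoid-bearing lipids across photoreceptor disc membranes, was nearly absent from Vector and rose in both groups. It had 27, 28 and 32 counts in FTO and 211, 196 and 209 counts in mut-FTO, against 3, 0 and 4 counts in Vector. These are 0.717, 0.751 and 0.916 CPM in FTO, 5.70, 6.65 and 6.04 CPM in mut-FTO, and 0.0877, 0 and 0.113 CPM in Vector, so no group overlaps another. The log2 fold change was 3.51 in FTO (SE 0.54; edgeR adjusted p = 0.00955) and 6.45 in mut-FTO (SE 0.52; edgeR adjusted p = 1.55e-05). In total counts FTO was 11.9 times Vector (95% counting interval 5.55 to 30.5) and mut-FTO 91.8 times (44.3 to 229). FTO was 7.69-fold lower than mut-FTO (log2 −2.94, SE 0.39; edgeR adjusted p = 0.00223). The call in FTO was lost without FTO replicate 3 (edgeR adjusted p = 0.0676), with limma-voom (0.096) and in a fit of the 6 libraries compared (0.14), while the other calls on ABCA4 held under each of the 18 alternatives. Of the photoreceptor markers, PRPH2, RCVRN and CRX had no count in any library, and NRL alone was tested, at 1.02 CPM in FTO, 1.49 in mut-FTO and 0.906 in Vector.

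ABCG1, which passes cholesterol from cells to lipoproteins, was lower in FTO than in mut-FTO. It had counts of 7, 19 and 9 (FTO) and of 60, 100 and 78 (mut-FTO), against 42, 12 and 10 in Vector. That is 0.186, 0.510 and 0.258 CPM in FTO, 1.62, 3.40 and 2.25 CPM in mut-FTO, and 1.23, 0.336 and 0.282 CPM in Vector. Every mut-FTO library lay above every library of the other groups, and Vector replicate 1 stood above the other Vector libraries. FTO was 7.53-fold below mut-FTO (log2 −2.91, SE 0.63; edgeR adjusted p = 0.0306). This call was lost when any of the 3 FTO libraries was left out (edgeR adjusted p = 0.072 to 0.154) or any of the 3 mut-FTO libraries (0.0537 to 0.166). Against Vector, mut-FTO differed by 1.97 (SE 0.59; edgeR adjusted p = 0.0639), and without Vector replicate 1 by 2.95 (edgeR adjusted p = 0.00898). DESeq2 and limma-voom called it with all libraries (adjusted p = 0.0153 and 0.0360). FTO against Vector gave a log2 difference of −0.94 (SE 0.63; edgeR adjusted p = 0.587), and of 0.042 (edgeR adjusted p = 0.979) without Vector replicate 1.

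**Figure D3:**
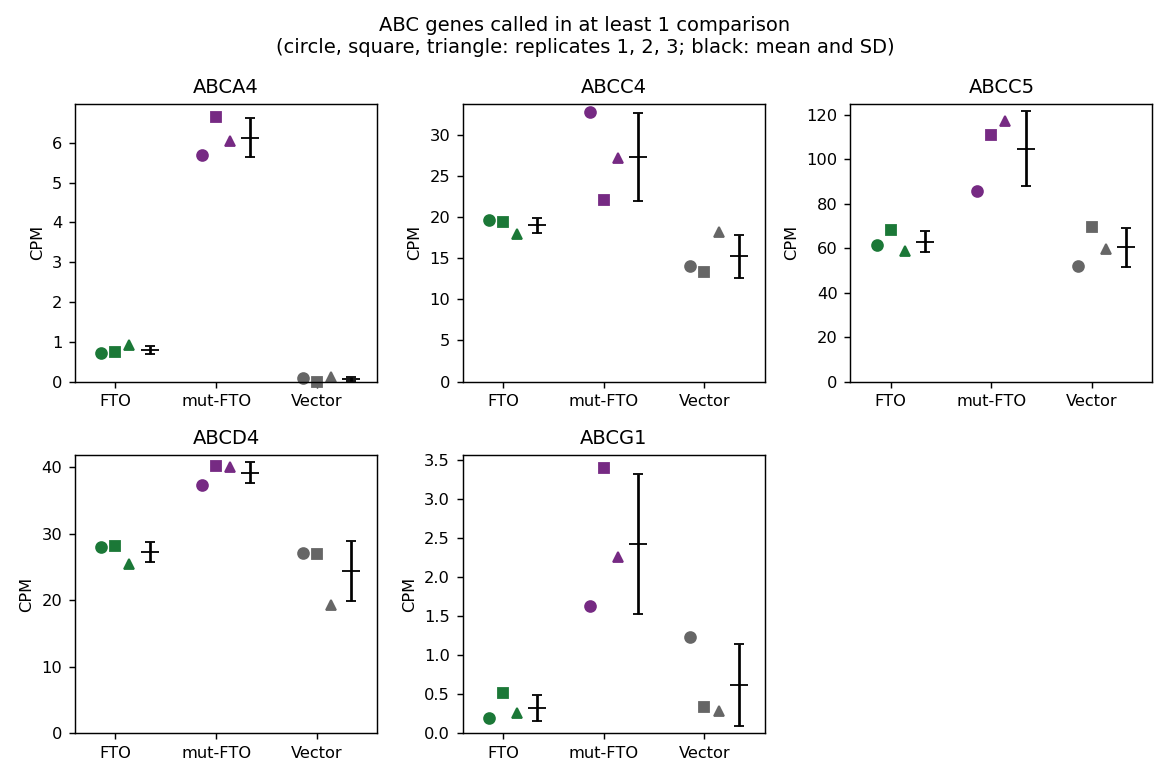
CPM of ABCA4, ABCC4, ABCC5, ABCD4 and ABCG1 in each library, with groups FTO, mut-FTO and Vector from left to right, a circle, square and triangle for replicates 1, 2 and 3, and the mean with its SD in black. All 3 mut-FTO libraries lie above all FTO and Vector libraries in every panel.

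The conjugate and nucleotide exporters ABCC4 and ABCC5 rose in mut-FTO. ABCC4, which exports cyclic nucleotides and prostaglandins, stood at 19.7, 19.4 and 17.9 CPM in FTO and 32.8, 22.1 and 27.1 CPM in mut-FTO, against 14.1, 13.3 and 18.2 CPM in Vector. Libraries of mut-FTO lay above both other groups, while FTO overlapped Vector. The change in mut-FTO was 1.80-fold (log2 0.85, SE 0.20; edgeR adjusted p = 0.0195), and it was lost without mut-FTO replicate 1 (0.08), mut-FTO replicate 3 (0.0698) or Vector replicate 2 (0.0925), and in a fit of the 6 libraries compared (0.091). FTO differed from Vector by 0.32 (SE 0.20; edgeR adjusted p = 0.546) and from mut-FTO by −0.53 (SE 0.20; edgeR adjusted p = 0.226, and 0.0302 without Vector replicate 3).

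ABCC5, an exporter of cyclic GMP and other anions, stood at 61.6, 68.1 and 58.8 CPM in FTO and 85.5, 111 and 117 CPM in mut-FTO, against 51.8, 69.5 and 59.6 CPM in Vector. FTO libraries fell inside the range of Vector, and mut-FTO libraries above both. The change in mut-FTO was 1.74-fold (log2 0.80, SE 0.17; edgeR adjusted p = 0.0134), lost without mut-FTO replicate 2 (0.0564) or 3 (0.0779) and in a fit of the 6 libraries compared (0.06). FTO was 1.67-fold below mut-FTO (log2 −0.74, SE 0.17; edgeR adjusted p = 0.0468). That call was close to the threshold and was lost when any FTO library was left out (edgeR adjusted p = 0.148 to 0.211), mut-FTO replicate 2 (0.173), mut-FTO replicate 3 (0.226) or Vector replicate 2 (0.0634), with limma-voom (0.0541), with library size alone (0.0667) and with replicate numbers as a block (0.0701). FTO against Vector gave 0.060 (SE 0.17; edgeR adjusted p = 0.924), and 0.029 without Vector replicate 3. ABCC5-AS1 overlaps ABCC5 in RefSeq and is not a row of the table, and without a stated strand setting its reads could have been counted for ABCC5.

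ABCD4, which moves cobalamin out of lysosomes, rose in mut-FTO as well. Its levels were 28.0, 28.2 and 25.5 CPM in FTO and 37.4, 40.2 and 40.0 CPM in mut-FTO, against 27.15, 26.96 and 19.2 CPM in Vector. All mut-FTO libraries lay above the others, and the lowest value was in Vector replicate 3. The change in mut-FTO was 1.60-fold (log2 0.68, SE 0.17; edgeR adjusted p = 0.0317), and 0.53 (edgeR adjusted p = 0.0125) without Vector replicate 3. It was the least stable of the calls against Vector: leaving out any library other than Vector replicates 1 and 3 gave edgeR adjusted p = 0.061 to 0.115. It was also lost with library size alone (0.0596), with replicate numbers as a block (0.0573) and in a fit of the 6 libraries compared (0.127). FTO lay 0.53 below mut-FTO on the log2 scale (SE 0.17; edgeR adjusted p = 0.165, and 0.00717 without Vector replicate 3).

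Of the 4 members that rose in mut-FTO, ABCC4, ABCC5 and ABCD4 but not ABCA4 were matched to a promoter window. The 250 bases before the start of these 3 genes are shown, from RefSeq on GRCh38.p14. The windows are chr13:95301452-95301701 for ABCC4, chr3:184017885-184018134 for ABCC5 and chr14:74302935-74303184 for ABCD4, all on the minus strand and written 5′ to 3′. Capitals mark the GC box GGGCGG, the TATA box TATAAA and the core of the antioxidant response element, TGACNNNGC, on either strand.
ABCC4: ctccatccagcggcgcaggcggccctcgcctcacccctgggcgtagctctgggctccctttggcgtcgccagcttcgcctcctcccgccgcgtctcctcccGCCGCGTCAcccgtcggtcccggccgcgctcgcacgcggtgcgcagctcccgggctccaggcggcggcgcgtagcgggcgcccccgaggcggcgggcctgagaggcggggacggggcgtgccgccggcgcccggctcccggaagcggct
ABCC5: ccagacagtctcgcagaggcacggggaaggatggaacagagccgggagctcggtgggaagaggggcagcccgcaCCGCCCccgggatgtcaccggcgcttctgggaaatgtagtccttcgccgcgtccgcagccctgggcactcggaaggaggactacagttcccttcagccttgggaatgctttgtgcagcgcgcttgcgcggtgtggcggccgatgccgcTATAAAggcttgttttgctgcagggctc
ABCD4: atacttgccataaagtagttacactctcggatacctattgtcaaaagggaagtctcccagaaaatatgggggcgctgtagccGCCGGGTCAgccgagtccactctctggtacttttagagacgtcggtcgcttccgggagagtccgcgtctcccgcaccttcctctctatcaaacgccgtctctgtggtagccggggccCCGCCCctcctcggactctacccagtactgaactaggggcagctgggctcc
Their GC content was 80.4%, 64.8% and 58.0% for ABCC4, ABCC5 and ABCD4. The core TGACNNNGC occurred in the windows of ABCC4 and ABCD4, in 6 of the 24 tested members with a window and in 10.9% of 35116 windows of all genes. GGGCGG occurred in those of ABCC5 and ABCD4, in 16 of 24 tested members and in 42.6% of all windows, and TATAAA in that of ABCC5, in 3 of 24 and in 10.7%. None of the 3 windows held the CCAAT box, which 32% of all windows and 4 of 24 tested members hold. Nor did they hold the E-box CACGTG, found in 6.34% of all windows and 3 of 24 members, or the AP-1 element TGANTCA, found in 6.57% and in none of the 24. No marked match overlapped another. In all, 35 of 45 members had a window. Across the longest transcripts, GGACT, a sequence often methylated on its adenosine, occurred 1.09 times per kilobase in ABCA4, 0.863 in ABCG1, 0.683 in ABCC4, 0.507 in ABCC5 and 2 in ABCD4, where the quartiles over 19669 genes were 0.537 and 1.41.

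Among the remaining lipid carriers of subfamily A, several lay lower in FTO than in both other groups without passing the test. ABCA1, which loads cholesterol onto apolipoproteins, stood at 15.7, 15.4 and 14.2 CPM in FTO and 34.0, 24.4 and 32.8 CPM in mut-FTO, against 16.3, 20.6 and 35.3 CPM in Vector. FTO libraries lay below all others, and Vector spanned nearly the whole range. FTO was 2.02-fold below mut-FTO (log2 −1.01, SE 0.26; edgeR adjusted p = 0.0673). Vector replicate 3 belongs to neither group compared, but enters the shared filter, scaling and spread. Without that library the difference was −1.03 (edgeR adjusted p = 0.000379), and DESeq2 called the difference with all libraries (adjusted p = 0.00642). Against Vector, mut-FTO gave 0.34 (SE 0.26; edgeR adjusted p = 0.5), and 0.71 without Vector replicate 3 (edgeR adjusted p = 0.00925). FTO against Vector gave −0.67 (SE 0.26; edgeR adjusted p = 0.326), and −0.31 without Vector replicate 3.

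ABCA12, the ceramide carrier of lamellar granules, stood at 2.21, 2.58 and 2.66 CPM in FTO and 4.95, 3.53 and 4.39 CPM in mut-FTO, against 2.75, 4.08 and 6.06 CPM in Vector. Libraries of FTO again lay lowest, while mut-FTO fell inside the range of Vector. FTO differed from mut-FTO by −0.79 (SE 0.30; edgeR adjusted p = 0.241) and from Vector by −0.79 (SE 0.30; edgeR adjusted p = 0.321), and neither passed. Without Vector replicate 3 the difference from Vector was −0.48 (edgeR adjusted p = 0.365). ABCA3, known for carrying surfactant lipids in the lung, averaged 1.57 ± 0.312 CPM in FTO, 3.11 ± 0.437 in mut-FTO and 2.59 ± 0.813 in Vector. Its difference of FTO from mut-FTO was −0.98 (SE 0.31; edgeR adjusted p = 0.139, and 0.0378 without Vector replicate 3).

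ABCA2 and ABCA5 moved apart from this pattern. ABCA2, an endosomal sterol carrier, had 15.6, 12.2 and 10.3 CPM in FTO and 7.49, 12.7 and 13.7 CPM in mut-FTO, against 18.1, 20.3 and 18.0 CPM in Vector. Both groups lay below every Vector library, by −0.57 in FTO (SE 0.24; edgeR adjusted p = 0.384) and −0.73 in mut-FTO (SE 0.24; edgeR adjusted p = 0.0916, 0.0264 without Vector replicate 3 and 0.0362 by DESeq2). ABCA5, a lysosomal member, averaged 4.70 ± 0.692 CPM in FTO, 5.75 ± 0.914 in mut-FTO and 3.36 ± 1.32 in Vector. Vector replicate 3 held 4.88 CPM of it, against 2.54 and 2.66 in the other Vector libraries. Its difference of mut-FTO from Vector was 0.78 (SE 0.29; edgeR adjusted p = 0.132), and 1.14 without Vector replicate 3 (edgeR adjusted p = 0.00635). ABCA10, its neighbour, overlaps ABCA5 in RefSeq, so reads of both may not be told apart. ABCA10 had 0, 3 and 3 counts in FTO and 0, 0 and 1 counts in mut-FTO, against 7, 23 and 28 in Vector, a count ratio to Vector of 0.0993 in FTO (95% counting interval 0.035 to 0.229) and 0.0180 in mut-FTO (0.000448 to 0.104).

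**Figure D4:**
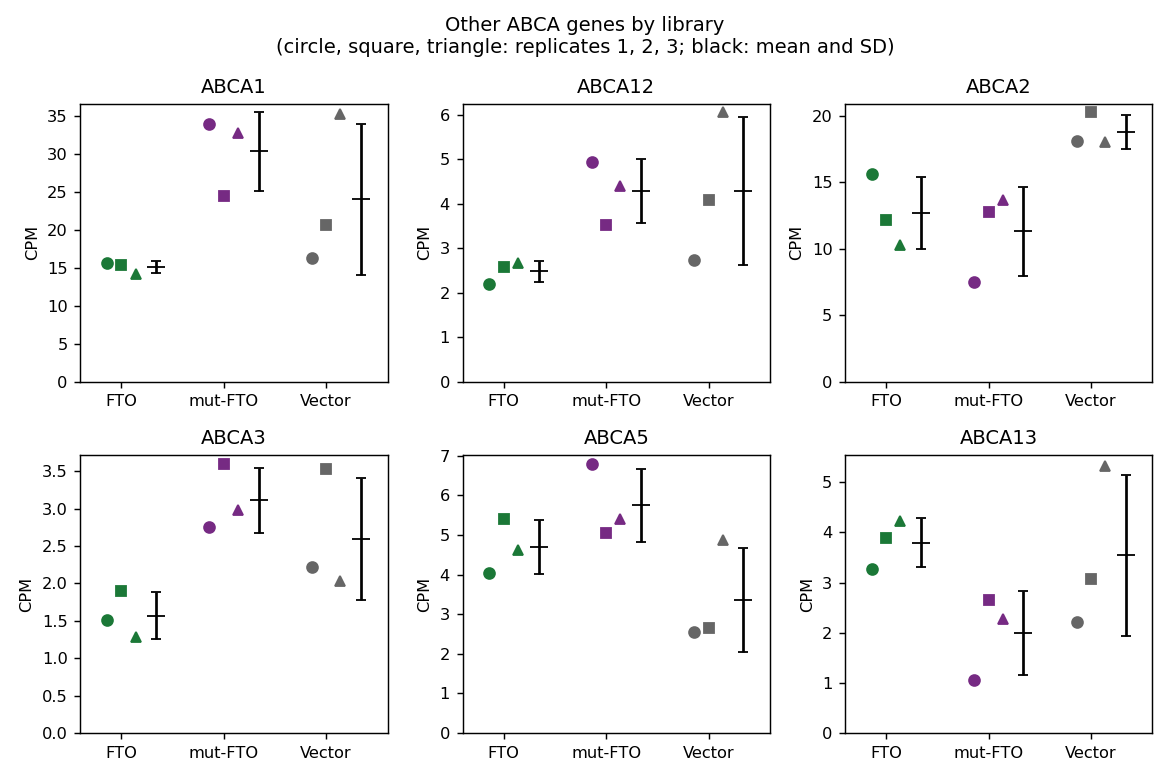
CPM of ABCA1, ABCA12, ABCA2, ABCA3, ABCA5 and ABCA13 in each library, with groups FTO, mut-FTO and Vector from left to right, a circle, square and triangle for replicates 1, 2 and 3, and the mean with its SD in black. In the panels of ABCA1, ABCA12 and ABCA3 all FTO libraries lie below all mut-FTO and Vector libraries, and the triangle of Vector is the highest of its group for ABCA1, ABCA12, ABCA5 and ABCA13.

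ABCA7, a phospholipid carrier tied to phagocytosis, was the most abundant ABCA gene per length. It stood at 17.8, 19.4 and 20.1 CPM in FTO and 21.5, 25.7 and 32.7 CPM in mut-FTO, against 27.6, 33.3 and 17.7 CPM in Vector. Only Vector replicate 3 brought Vector down to the range of FTO: FTO differed from Vector by −0.46 (SE 0.24; edgeR adjusted p = 0.467), and by −0.70 without that library (edgeR adjusted p = 0.0298). ABCA13 averaged 3.80 ± 0.490 CPM in FTO, 1.995 ± 0.835 in mut-FTO and 3.54 ± 1.61 in Vector, and was the ABCA gene with the largest positive difference of FTO from mut-FTO (0.93, SE 0.39; edgeR adjusted p = 0.293). Summed over subfamily A, FTO held 60.8, 61.6 and 58.7 CPM and mut-FTO 84.3, 84.4 and 100 CPM, against 72.1, 88.2 and 90.2 CPM in Vector. That sum follows its most abundant genes, ABCA1, ABCA7 and ABCA2.

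With all 9 libraries none of the 5 tested ABCB genes passed the test in any comparison by edgeR, DESeq2 or limma-voom, and at an unadjusted p below 0.05 there was 1, for mut-FTO over Vector. Without Vector replicate 3, edgeR called 1 ABCB gene higher in mut-FTO than in Vector, where 15% of all genes were called. ABCB6, a porphyrin carrier and the leading ABCB gene per length, stood at 57.5, 62.9 and 51.8 CPM in FTO and 56.9, 67.4 and 71.5 CPM in mut-FTO, against 56.5, 56.8 and 31.2 CPM in Vector. FTO overlapped both other groups, and the lowest mut-FTO library lay just above the highest of Vector. The difference of mut-FTO from Vector was 0.44 (SE 0.22; edgeR adjusted p = 0.274), and 0.19 (SE 0.13; edgeR adjusted p = 0.375) without Vector replicate 3. ABCB8 and ABCB9, a mitochondrial and a lysosomal member, showed the same low library, with 18.8 and 4.74 CPM in Vector replicate 3 against 43.4 to 44.0 and 10.8 to 11.75 CPM in the other Vector libraries. ABCB10, needed for heme synthesis, averaged 11.6 ± 0.519 CPM in FTO, 9.30 ± 1.59 in mut-FTO and 12.1 ± 1.85 in Vector.

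In subfamily C the most abundant gene, ABCC1, had 140, 142 and 129 CPM in FTO and 141, 208 and 194 CPM in mut-FTO, against 127, 146 and 124 CPM in Vector. Replicate 1 of mut-FTO lay inside the range of the other groups and the other 2 above it. The difference of mut-FTO from Vector was 0.45 (SE 0.17; edgeR adjusted p = 0.137), and 0.60 without mut-FTO replicate 1 (edgeR adjusted p = 0.0451). ABCC3, a bile salt and glucuronide exporter, averaged 101 ± 11.4 CPM in FTO, 123 ± 24.6 in mut-FTO and 111 ± 6.31 in Vector, within the spread of the libraries. ABCC10 averaged 21.2 ± 2.20 CPM in FTO, 29.9 ± 4.61 in mut-FTO and 21.5 ± 7.87 in Vector, with 12.8 CPM in Vector replicate 3. Its difference of FTO from mut-FTO was −0.50 (edgeR adjusted p = 0.42), and −0.51 without Vector replicate 3 (edgeR adjusted p = 0.0346). All 8 tested ABCC genes had a negative fitted difference of FTO from mut-FTO. It ran from −0.11 (SE 0.28) for ABCC2 to −0.74 (SE 0.17) for ABCC5. ABCC5 alone was called, and 3 had an unadjusted edgeR p below 0.05. The 8 values rest on the same libraries, and the share of negative signs over all genes was not taken. ABCC2 lay between 1.647 and 3.215 CPM in all libraries. ABCC6 and ABCC9 were below 1 CPM everywhere, and pseudogene copies of ABCC6 make its reads uncertain. Without a stated strand setting, reads of ABCA1, ABCB9, ABCC10 and ABCE1 may also be shared with the genes that overlap them in RefSeq, NIPSNAP3B, OGFOD2, DLK2 and ANAPC10.

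ABCD4 apart, no tested ABCD gene passed the test. ABCD3, a peroxisomal fatty acid carrier, averaged 17.9 ± 1.43 CPM in FTO, 17.2 ± 3.19 in mut-FTO and 13.9 ± 0.843 in Vector, and every FTO library lay above every Vector library (log2 0.37, SE 0.19; edgeR adjusted p = 0.456). ABCE1, which recycles ribosomes, stood at 28.6, 32.1 and 34.0 CPM in FTO and 31.0, 21.3 and 19.5 CPM in mut-FTO, against 24.9, 24.6 and 47.7 CPM in Vector. The highest of its 9 values was again that of Vector replicate 3. ABCF3 stood at 77.4, 84.2 and 83.1 CPM in FTO and 74.2, 93.7 and 94.3 CPM in mut-FTO, against 83.2, 78.3 and 57.5 CPM in Vector, overlapping throughout. For ABCF1, ABCF2 and ABCF3 fitted differences ran from −0.11 to 0.26 over the 3 comparisons, and from −0.25 to 0.13 without Vector replicate 3. ABCG2, a urate and drug exporter, stood at 2.47, 2.28 and 2.63 CPM in FTO and 2.41, 1.49 and 2.54 CPM in mut-FTO, against 4.12, 2.57 and 2.85 CPM in Vector. Every mut-FTO library lay below every Vector library, by −0.56 in the fit (SE 0.30; edgeR adjusted p = 0.307).

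Vector replicate 3 held the lowest value of the 9 libraries for 10 of 30 members and the highest for 6. The highest value also lay in mut-FTO replicate 2 for 6 members. Such shares were not taken over all genes, so these counts are not shown to be particular to the family. Lowest in Vector replicate 3 were ABCA7, ABCB6, ABCB8, ABCB9, ABCC1, ABCC6, ABCC10, ABCD4, ABCF2 and ABCF3. Highest in Vector replicate 3 were ABCA1, ABCA12, ABCA13, ABCC2, ABCC9 and ABCE1. Against the mean of the other Vector libraries its CPM was 0.421 times for ABCB9 and 0.430 times for ABCB8, and 1.91 times for ABCA1 and 1.93 times for ABCE1. The median SD of log2 CPM over the tested members was 0.14 in FTO, 0.244 in mut-FTO and 0.406 in Vector. Over all genes tested it was close to these, at 0.143, 0.23 and 0.366. Without this library 2 members were called in FTO against Vector (ABCA4 higher, ABCA7 lower), where 3.41% of all genes were. In mut-FTO against Vector there were then 8, where 15% of all genes were called. ABCA1, ABCA5 and 1 ABCB gene rose and ABCA2 fell, beside ABCA4, ABCC4, ABCC5 and ABCD4. FTO against mut-FTO then gave 8, all lower in FTO, where 10.2% were called: ABCA1, ABCA3, ABCC4, ABCC10 and ABCD4 beside ABCA4, ABCC5 and ABCG1. The high mitochondrial share of Vector replicate 3 is that of a single library, and its part in these values was not tested.

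**Figure D5:**
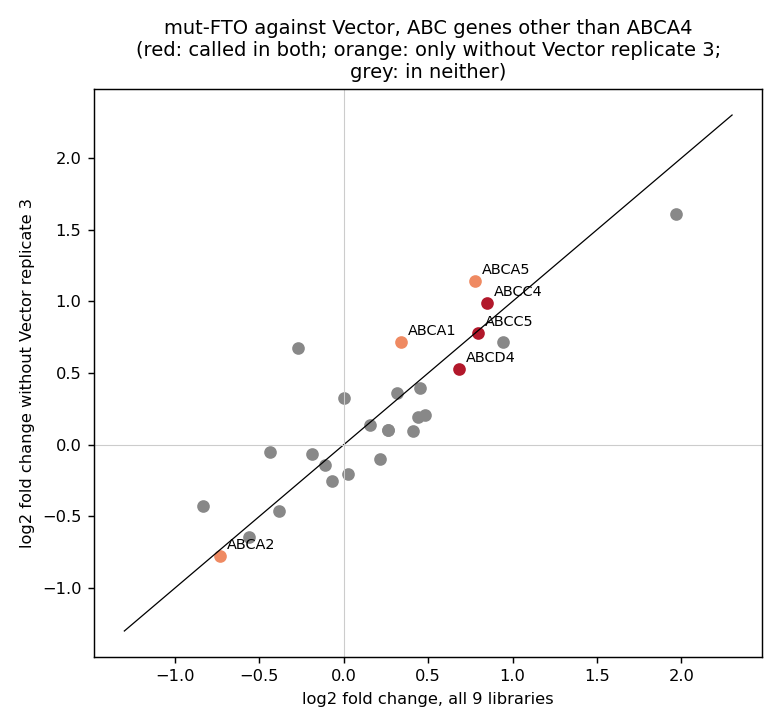
Log2 fold changes of mut-FTO against Vector for 27 tested ABC genes, with ABCA4 among those not drawn, with all 9 libraries on the horizontal axis and without Vector replicate 3 on the vertical axis, and a line of equal values. Red points (ABCC4, ABCC5, ABCD4) were called in both fits, orange points (ABCA1, ABCA2, ABCA5) only without that library, and grey points in neither.

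The ABC proteins outside the naming rule were read beside the members. TAP1 and TAP2, which carry peptides to MHC class I, averaged 240 ± 9.38 and 133 ± 9.66 CPM in FTO and 256 ± 25.2 and 142 ± 6.19 CPM in mut-FTO, against 253 ± 94.5 and 151 ± 41.0 CPM in Vector, and overlapped in every comparison. Without Vector replicate 3 and mut-FTO replicate 2 together, edgeR called both lower in FTO than in Vector, TAP1 by −0.37 (adjusted p = 0.0315) and TAP2 by −0.40 (adjusted p = 0.0229). That fit called 7.55% of all genes in FTO against Vector, where the fit of all 9 libraries called 0.744%. CFTR, an anion channel, fell to 0.193 ± 0.162 CPM in mut-FTO, against 2.62 ± 1.12 CPM in Vector (log2 −3.72, SE 0.61; edgeR adjusted p = 0.00234), and stood at 0.605 ± 0.214 CPM in FTO (−2.11 against Vector, SE 0.54; edgeR adjusted p = 0.123, DESeq2 0.00843).

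Genes that work with ABC proteins were taken as 7 lists of 115 symbols, TAP1, TAP2 and CFTR included, all of which matched the table and 107 of which were tested. In FTO against Vector none was called by edgeR, where 0.744% of all genes were, while 10 had an unadjusted p below 0.05, where 11.9% of all genes did. DESeq2 called 2 and limma-voom 0, where they called 2.67% and 0.685% of all genes. In mut-FTO 6 rose and 7 fell against Vector, where 3.27% of all genes rose and 4.51% fell. With mut-FTO as the base, 2 were higher and 2 lower in FTO, close to the 1.2% and 1.13% of all genes. Of 20 tested sterol genes in mut-FTO, NPC1, which exports cholesterol from lysosomes, fell to 120.5 ± 15.6 CPM, against 246 ± 35.8 CPM in Vector (edgeR adjusted p = 0.00203). SOAT1, which esterifies cholesterol, fell 1.77-fold and MYLIP, which marks the LDL receptor for decay, rose 1.76-fold, and 17 did not pass. Of 20 glutathione and conjugation genes GCLC, the rate-limiting enzyme of glutathione synthesis, rose 2.16-fold, GSTM3 rose 4.29-fold, HMOX1 fell 2.20-fold and 17 did not pass. GSTM3 was scarce, at 0.949 ± 0.284 CPM in mut-FTO and 0.218 ± 0.0706 CPM in Vector. The call on GSTM3 held in 5 of 18 alternatives. It was lost with limma-voom (adjusted p = 0.0726) and without Vector replicate 3 (log2 1.86, edgeR adjusted p = 0.0806).

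The barrier lipid list around ABCA12 moved in both directions in mut-FTO. Of 16 tested genes 3 rose and 2 fell: the lipoxygenase ALOX12B reached 5.36 ± 1.39 CPM, against 0.6 ± 0.255 CPM in Vector (edgeR adjusted p = 0.000385), the transglutaminase TGM1 rose 2.07-fold and ABHD5 1.66-fold, while the ceramide synthase CERS3 fell 2.64-fold and the desaturase DEGS1 1.85-fold. FTO against mut-FTO gave ALOX12B 4.43-fold and TGM1 1.99-fold lower and DEGS1 1.58-fold higher. Of 12 ribosome genes EIF2S3, an initiation factor subunit, fell 1.87-fold in mut-FTO and stood 1.66-fold higher in FTO when set against mut-FTO. None of the 18 peroxisome or 18 heme and iron-sulfur genes passed edgeR in any comparison. At an unadjusted p below 0.05 there were 3 peroxisome and 3 heme genes for mut-FTO over Vector, 1 and 0 for FTO over Vector, and 1 and 1 for FTO over mut-FTO, where 21.1%, 11.9% and 14% of all genes met that bound. DESeq2 called 2 of the 18 heme genes in mut-FTO against Vector, where it called 12.3% of all genes. List medians ran from −0.18 to 0.32 over all lists and comparisons, against medians of all genes within 0.0047 of 0. Without 1 library, calls against Vector were lost for SOAT1 (mut-FTO replicates 2 and 3), GCLC (mut-FTO replicate 1 and Vector replicate 2), MYLIP (all but mut-FTO replicate 2 and Vector replicate 3), ABHD5 (all but mut-FTO replicate 2 and Vector replicates 1 and 3) and GSTM3 (any of the 9). Calls of FTO against mut-FTO were lost for ALOX12B (FTO replicates 1 and 2 and mut-FTO replicate 3), for TGM1 and EIF2S3 (any FTO library and mut-FTO replicates 2 and 3) and for DEGS1 (all but Vector replicates 1 and 3).

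Markers of other cell types were low, except CD68 and CD14 of the leukocyte list. Fibroblast markers summed to 5.68 to 8.07 CPM in FTO, 9.73 to 10.8 in mut-FTO and 9.15 to 10 in Vector, with POSTN at 0. Melanocyte markers summed to 1.5 to 2.20 CPM in FTO, 1.46 to 2.65 in mut-FTO and 0.935 to 1.49 in Vector, with TYR and DCT at 0. Endothelial markers were at most 1.07, 0.378 and 1.73 CPM in FTO, mut-FTO and Vector, with PECAM1 and CLDN5 at 0. Leukocyte markers gave 66.5 to 74.4 CPM in FTO, 69.5 to 110 in mut-FTO and 67.4 to 90.6 in Vector, nearly all from CD68 and CD14, with CD2 at 0 and PTPRC at no more than 0.0180 CPM on average in any group.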

How the data were processed

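Counts per gene from poly(A) RNA sequencing were analysed, 3 libraries in each of 3 groups, grouped by the sample titles. Per the submitters' processing notes the authors ran StringTie and HISAT2, and they deposited whole-number counts, not normalized. Versions, strand setting and annotation were not given in the sources used here. As genome build mm10 (mouse) is named there, though the symbols are human, so no coordinates of the counted genes are given. No 2 libraries agreed within sampling noise.

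The members and lists were chosen with earlier results of these data known. The counts of all genes were tested with edgeR 4.0.16 (R 4.3.3): filterByExpr (minimum count 10, minimum total 15), TMM scaling and one robust quasi-likelihood model of all 9 libraries with a term per group, with Benjamini-Hochberg adjustment over 13713 genes, called below 0.05. The script was tested on simulated data. Standard errors come from the fold change and F statistic, and SD and log2 CPM (prior count 2) from TMM-scaled CPM. Intervals at 95% are exact binomial ones on total counts and, with the limit of 3 counts, cover counting error only. DESeq2 1.42.0 and limma-voom (limma 3.58.1) were alternatives. Values are given by library for ABCA4, ABCG1, called members of at least 1 CPM, the member highest per length in each subfamily, ABCA1 and ABCA12. Values of other members by library (ABCA2 and others) were added after they were seen. Replicate numbers did not pair libraries. Some members and markers are not reported here singly, and the figures leave them out; counts over the family include them.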

Additional observations from a re-analysis of the deposited data

How the results depend on the processing

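Of 30 tested ABC genes the edgeR fit called 1 in FTO against Vector, 4 in mut-FTO against Vector and 3 in FTO against mut-FTO. In that order, only the 6 libraries compared gave 0, 1 and 7, where 0.306%, 4.63% and 9.1% of all genes were called. Leaving out Vector replicate 3 and mut-FTO replicate 2 together gave 3, 9 and 8, where 7.55%, 17.3% and 8.6% were. limma-voom gave 0 in FTO against Vector, where it called 0.685% of all genes. A log2 fold change of at least 1 left 1 in mut-FTO against Vector, and 5.12% of all genes. Leaving out 1 library gave 0 to 2, 1 to 8 and 1 to 8, where 0.193% to 3.41%, 4.36% to 15% and 0.508% to 10.2% of all genes were called. The causes were not tested. RLE factors, library size alone, DESeq2, no filter and a mean of at least 10 counts stayed within 1.5 times of each count, and library size alone put the median of all genes no farther from 0 than −0.0744. Of 1617 refitted values of single members, 1547 kept their side of the threshold, 35 lost a call, 35 gained one, and none with a call changed sign. With no filter ABCA10 was tested and called lower in mut-FTO (−5.36; edgeR adjusted p = 0.0476); in the 7 fits without 1 library that tested it, those leaving out Vector replicate 2 or 3 not among them, its adjusted p was 0.0231 to 0.0986.

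With the replicate number as a block the counts were 1, 3 and 2, where 0.489%, 5.93% and 1.62% of all genes were called. ABCD4 then lost its call against Vector (edgeR adjusted p = 0.0573) and ABCC5 that between FTO and mut-FTO (0.0701). Same-numbered libraries did not deviate together (correlations −0.127 to 0.106, other pairs −0.116 to 0.151), nor did every library correlate best with its own number. Depth limits ABCA4 and ABCG1, with 7 and 64 counts in Vector, and also ABCC6 and ABCC9, with 40 and 41.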
